A study of Mus musculus with 19 samples.

Results

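The transforming growth factor beta (TGF-beta) ligands, their receptors and a set of genes of the same signalling route were followed through neoplastic cells sorted from mouse lung tumors. The set held 9 genes, picked by name out of the 53558 genes of the expression tables: *Tgfb1*, *Tgfb2*, *Tgfb3*, *Ltbp1*, *Tgfbr1*, *Tgfbr2*, *Smad7*, *Skil* and *Tgfbi*. The choice was made with earlier results of these data known. All 9 passed the filter on low counts that left 13986 genes in the test. Transcripts of *Tgfb2* were higher relative to sgInert after targeting of *Cebpa*, *Cebpb* and *Cebpd* and after targeting of *Lkb1*, by 2.13-fold in each case. Those of *Tgfbi*, *Tgfbr2* and *Ltbp1* were higher relative to sgInert in the *Lkb1*-targeted cells, by 4.05-fold, 1.52-fold and 3.56-fold, of which the call of *Ltbp1*, on 5 to 25 reads in the sgInert libraries, was lost in 3 of 12 other settings and on leaving out any 1 of 8 libraries. *Tgfb1*, *Tgfb3*, *Tgfbr1*, *Smad7* and *Skil* did not pass the test in any of the 3 comparisons over all libraries.

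All mice carried the tdTomato reporter allele Rosa26 LSL-tdTomato and the Cas9 allele H11 LSL-Cas9, both switched on by Cre recombinase, on a mixed C57BL/6J:129 background. They were 6 to 12 weeks old when tumors were initiated by a lentivirus, given through the trachea, that carried Cre and guide RNAs, and the tumors grew for 17 weeks. The 3 viruses carried control guides (sgNeo1, sgNT and sgNeo2, together called sgInert, 7 libraries), guides against *Cebpa*, *Cebpb* and *Cebpd* in one vector (sgCebpa/b/d, 7 libraries), or a guide against *Lkb1*, the gene *Stk11* (sgLkb1, 5 libraries). Cells stained for CD45, CD31, F4/80 or Ter119 and dead cells were sorted away, a gate meant to remove hematopoietic and endothelial cells but with no antibody against fibroblasts. The study also sorted on tdTomato, which marks cells that have met Cre, in other experiments, and the labels of these libraries do not name such a gate. Cas9 leaves a mixture of repaired sequences in each tumor, and such a change need not lower the transcript of its target. The labels do not say that the libraries of a group came from separate mice, and 7 libraries share a number in their titles with another library of their group, so the p-values measure the spread between libraries, part of which may be technical.

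TGF-beta is secreted in a latent form, wrapped in its own propeptide and tied to the extracellular matrix by latent TGF-beta binding proteins, and integrins that contain the alpha-v chain pull it free. The active ligand brings together a type II and a type I receptor, which phosphorylate SMAD2 and SMAD3, and these enter the nucleus with SMAD4. Among the genes they switch on are inhibitors that end the signal, such as *Smad7* and *Skil*, and matrix genes such as *Tgfbi* and *Fn1*. In the lung epithelium the route restrains proliferation and is tied to the shift toward a mesenchymal state.

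The promoter windows of the 4 genes that passed a test are shown because they moved together in the *Lkb1*-targeted cells. Each window runs from 250 bases before to 50 bases from the RefSeq start site on, 5′ to 3′ on the strand of the gene, on GRCm38.p6, the build of the files (mm10). Capitals mark matches, on either strand, to CAGAC (an element bound by SMAD proteins), TGACGTCA (the cyclic AMP response element), TGANTCA (the AP-1 element) or TTNNGNAA (a C/EBP element). The windows lie at chr1:186705940-186706239 on the minus strand (*Tgfb2*), chr17:75005279-75005578 on the plus strand (*Ltbp1*), chr9:116175314-116175613 on the minus strand (*Tgfbr2*) and chr13:56609336-56609635 on the plus strand (*Tgfbi*).
Tgfb2: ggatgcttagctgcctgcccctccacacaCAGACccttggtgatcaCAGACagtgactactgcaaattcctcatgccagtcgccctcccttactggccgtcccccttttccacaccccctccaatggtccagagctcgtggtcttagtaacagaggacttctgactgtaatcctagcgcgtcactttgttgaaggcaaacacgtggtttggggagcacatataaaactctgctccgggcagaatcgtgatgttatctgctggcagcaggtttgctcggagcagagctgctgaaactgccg
Ltbp1: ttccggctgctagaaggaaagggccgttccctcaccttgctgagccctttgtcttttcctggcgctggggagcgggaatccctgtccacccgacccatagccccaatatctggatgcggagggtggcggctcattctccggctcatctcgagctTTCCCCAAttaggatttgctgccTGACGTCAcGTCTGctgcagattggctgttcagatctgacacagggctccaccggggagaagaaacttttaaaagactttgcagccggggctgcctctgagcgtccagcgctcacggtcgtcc
Tgfbr2: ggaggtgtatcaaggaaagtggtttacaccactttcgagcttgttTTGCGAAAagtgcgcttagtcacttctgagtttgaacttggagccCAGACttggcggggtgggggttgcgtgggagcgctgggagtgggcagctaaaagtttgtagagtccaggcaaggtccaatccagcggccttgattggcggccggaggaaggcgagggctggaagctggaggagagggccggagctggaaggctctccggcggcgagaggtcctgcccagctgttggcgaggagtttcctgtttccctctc
Tgfbi: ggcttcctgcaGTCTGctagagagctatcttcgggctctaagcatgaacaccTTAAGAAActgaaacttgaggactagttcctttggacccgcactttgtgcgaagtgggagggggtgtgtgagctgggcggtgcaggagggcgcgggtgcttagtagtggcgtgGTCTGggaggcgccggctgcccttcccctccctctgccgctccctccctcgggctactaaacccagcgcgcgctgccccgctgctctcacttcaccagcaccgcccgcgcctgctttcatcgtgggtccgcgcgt

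CAGAC or its complement stood in all 4 of these windows, with 2 matches each in those of *Tgfb2* and *Tgfbi*, beside 49.6% of the 32851 windows of all genes. The C/EBP letters stood in the windows of *Ltbp1*, *Tgfbr2* and *Tgfbi* and in 40.7% of all windows, and were not in the window of *Tgfb2*. TGACGTCA stood in the window of *Ltbp1*, 73 bases before its start site, and in 1.79% of all windows. *Ltbp1* had 2 windows, and only the one nearest to its annotated gene start is shown and described here. TGANTCA was in none of the 4 and in 7.81% of all windows. Matches to CAGAC and to the C/EBP letters are thus common in windows of this length, and a match describes letters and is not a measured binding site.

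The libraries held 2760731 to 9944134 estimated reads on genes, with group medians of 5706599 (sgInert), 6260861 (sgCebpa/b/d) and 6515661 (sgLkb1). *Stk11* checked the labels: its level in TPM (a share of all transcripts of a library, adjusted for gene length) was 17.54 to 27.84 in sgInert and 7.55 to 15.25 in sgLkb1, a log2 fold change of -1.24 ± 0.17 (SE, adjusted p = 1.07e-04 in edgeR's quasi-likelihood test with Benjamini-Hochberg adjustment, the test meant by adjusted p throughout). In sgCebpa/b/d the targeted transcripts were not lower: *Cebpa* was at 43.86 to 86.11 TPM against 26.74 to 46.36 TPM in sgInert (log2 fold change 0.73 ± 0.14, adjusted p = 0.00148), with 1.16 ± 0.37 for *Cebpb* (adjusted p = 0.0524) and 0.20 ± 0.28 for *Cebpd* (adjusted p = 0.742), so that transcript levels give no check of that label. The titles of 10 libraries carry a number beginning with MT (3 sgInert, 4 sgCebpa/b/d, 3 sgLkb1), those of 4 sgInert libraries one beginning with ZR, and 3 titles of sgCebpa/b/d and 2 of sgLkb1 have no number, and the labels do not say what sets these series apart. The 3 sgCebpa/b/d libraries without a number were also the 3 male ones of that group, and the sgLkb1 libraries were all female, so that sex and title series cannot be told apart within sgCebpa/b/d. Results that depend on these series are given below with the MT libraries alone.

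Markers of other cells were low beside those of epithelium but differed between groups. The lung epithelial identity of the cells was read from 7 epithelial markers, whose summed level was 21528.8 to 43262.7 TPM over all libraries. Most of this sum was *Sftpc*, the surfactant gene of alveolar type II cells, and the other 6 markers summed to 1144.52 to 2386.39 TPM. These markers cannot tell neoplastic from normal epithelial cells, so they give no check that the cells were neoplastic. The summed level of 10 fibroblast markers was 5.96 to 71.09 TPM in sgInert, 38.94 to 153.26 TPM in sgCebpa/b/d, and 54.99 to 179.32 TPM in the sgLkb1 libraries, and 3 of the 9 that could be tested (*Col3a1*, *Dcn* and *Postn*) were higher relative to sgInert in either group. That was 33.3%, where 10.1% (sgCebpa/b/d) and 5.78% (sgLkb1) of all genes tested differed in either direction. The summed level of 7 endothelial markers was 6.44 to 19.28 TPM in sgInert, 7.72 to 22.1 TPM in the MT libraries of sgCebpa/b/d, 75.8 to 99.09 TPM in its libraries without a number and 22.28 to 80.72 TPM in sgLkb1. Of these 7, 4 were higher relative to sgInert in sgCebpa/b/d (57.1%, beside 10.1% of all genes tested) and 0 in sgLkb1. The immune markers reached at most 71.99 TPM and the smooth muscle markers at most 8.98 TPM, with *Adgre1* and *Cd3e* at 0 in all sgInert libraries and *Cnn1* at 0 in all sgCebpa/b/d libraries. Immune sums were 32.84 to 71.99 TPM in the sgCebpa/b/d libraries without a number and 5.44 to 10.97 TPM in its MT libraries. In sgLkb1 they were 29.43 to 49.59 and 5.31 to 15.62 TPM in the same order, and in sgInert 5.85 to 26.45 TPM. Platelet markers summed to 52.46 to 189.52 TPM in sgInert, 2.59 to 106.31 TPM in sgCebpa/b/d, and 32 to 70.58 TPM in the sgLkb1 libraries, and mesothelial markers to at most 2.51 TPM outside sgLkb1 and 5.02 to 14.4 TPM in it. The platelet sum was mostly *Pf4* (mean 96.75 TPM in sgInert), and the other platelet markers had group means of at most 1.02 TPM. The mesothelial sum in sgLkb1 was mostly *Msln* (mean 8.298 TPM), and the other mesothelial markers had means of at most 0.292 TPM there. Fibroblasts and endothelial cells, the latter meant to be removed by the CD31 gate, also make many of the genes described here, and in sorted bulk cells a change in the share of such cells and a change of RNA per cell cannot be told apart. The part of these cells in the results was not tested.

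**Figure D1:**
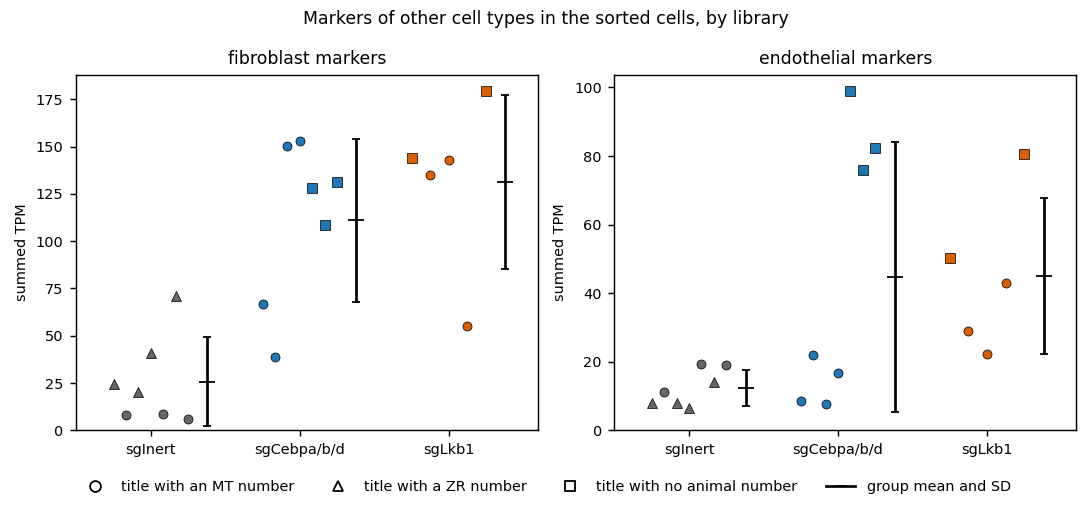
Summed TPM of 10 fibroblast markers (left) and 7 endothelial markers (right) in each library, by virus group, with bars for the group mean ± SD. The sgInert libraries sit at or below 71.09 TPM for fibroblast and at or below 19.28 TPM for endothelial markers, and the sgCebpa/b/d libraries whose titles carry no number hold 75.8 to 99.09 TPM of the endothelial markers.

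Relative to sgInert, 1 of the 9 genes passed the test at an adjusted p under 0.05 in sgCebpa/b/d cells (11.1%), where 10.1% of all genes tested did so (4.73% higher), which is near that background. In sgLkb1 cells 4 of 9 were higher (44.4%), beside 5.78% of all genes in either direction and 2.81% that were higher. Between the targeted groups 2 of 9 lay lower after sgCebpa/b/d (22.2%), beside 5.96% of all genes in either direction and 3.12% that were lower. The median log2 fold change of the 9 genes was 0.23, 0.24 and -0.29 in these comparisons, and that of all genes 0.02, -0.01 and 0.03. Both comparisons with sgInert use the same control libraries. The 9 genes were chosen with earlier results of these data known, so their shares beside the background are a description and not independent support. In the MT libraries alone 3 of 9 were higher in sgCebpa/b/d (beside 8.55% of all genes in either direction) and 5 of 9 in sgLkb1 (beside 6.97%).

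**Figure D2:**
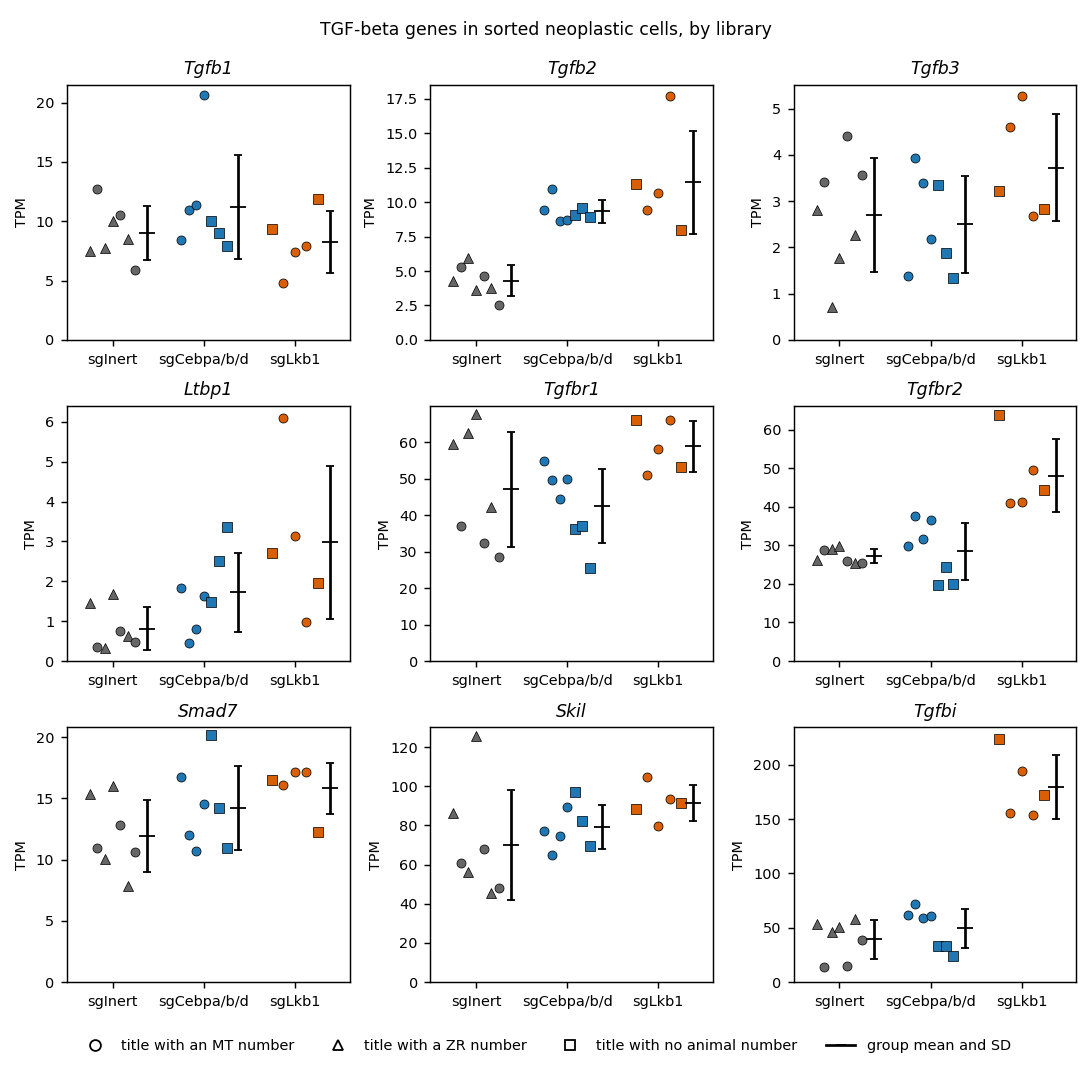
TPM of each of the 9 genes in every library, by virus group, with the symbol giving the title series and bars for the group mean ± SD. *Tgfb2* separates sgInert (at most 5.93 TPM) from both targeted groups (at least 7.95 TPM), and *Tgfbi* separates sgLkb1 (at least 153.39 TPM) from both other groups (at most 71.53 TPM).

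Of the 3 ligands, *Tgfb2*, the form best known from developing epithelia and the mesenchyme around them, was the one that passed the test. It was measured at 2.52, 4.31 and 5.93 TPM (lowest, median and highest of 7 libraries) in sgInert, and at 8.63, 9.04 and 10.95 TPM in sgCebpa/b/d. In sgLkb1 its 5 libraries held 11.34, 9.45, 10.67, 17.72 and 7.95 TPM. No library of a targeted group fell as low as the highest sgInert library. This held as well on counts scaled to the library and not divided by length. On those counts 1.28% (sgCebpa/b/d) and 2.15% (sgLkb1) of all genes showed a separation in this direction.

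The log2 fold change of *Tgfb2* was 1.09 ± 0.19 (SE) in sgCebpa/b/d (adjusted p = 6.07e-04) and 1.09 ± 0.21 in sgLkb1 (adjusted p = 0.0023). Between the targeted groups the difference was 0.00, with a 95% interval from -0.42 to 0.43 (adjusted p = 0.999). Differences within that interval are compatible with these libraries, and it does not give the smallest difference that the test could detect. Over the MT libraries *Tgfb2* was higher relative to sgInert by 1.17 ± 0.26 in sgCebpa/b/d (adjusted p = 0.0115) and by 1.45 ± 0.27 in sgLkb1 (adjusted p = 0.00441). *Tgfb2* passed the test in both comparisons under each of the 12 other settings and after leaving out any 1 library. Fibroblast marker sums in those MT libraries were 5.96 to 8.84 TPM in sgInert, 38.94 to 153.26 TPM in sgCebpa/b/d, and 54.99 to 143.16 TPM in the sgLkb1 libraries.

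*Tgfb1*, the main ligand of immune cells, platelets and most adult tissue, was measured at 5.93, 8.54 and 12.75 TPM (lowest, median and highest) in sgInert and at 7.91, 10 and 20.68 TPM in sgCebpa/b/d. The sgLkb1 libraries held 9.39, 4.83, 7.4, 7.91 and 11.92 TPM. The 3 groups overlapped, with log2 fold changes of 0.23 ± 0.20 (sgCebpa/b/d) and -0.18 ± 0.22 (sgLkb1) relative to sgInert (adjusted p = 0.55 and 0.741). The sgCebpa/b/d library at 20.68 TPM was the lowest of its group in log2 CPM (counts scaled to the library and not divided by length), at 3.61.

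*Tgfb3*, a ligand expressed in mesenchyme and in the heart and palate, was the lowest of the ligands on average in each group. Its level was 0.71, 2.8 and 4.4 TPM (lowest, median and highest) in sgInert and 1.34, 2.19 and 3.93 TPM in sgCebpa/b/d, and the sgLkb1 libraries held 3.22, 4.6, 5.28, 2.67 and 2.83 TPM. With 7 to 91 reads in a library the groups overlapped, and neither difference from sgInert passed the test (log2 fold change -0.12 ± 0.33 and 0.24 ± 0.36, adjusted p = 0.875 and 0.793). Its gene overlaps *Ttll5* on the other strand, and reads of the 2 genes in the shared stretch cannot be told apart without strand. *Tgfb2* has annotated genes on its other strand as well, which are listed at 0 in every library.

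The share of each ligand was taken as its part of the summed level of the 3 ligands in a library. *Tgfb1* made up 55.9% ± 5.35 (SD, n = 7) of the summed ligand TPM in sgInert, 47.5% ± 8.18 (n = 7) in sgCebpa/b/d and 35.4% ± 10.9 (n = 5) in sgLkb1. *Tgfb2* made up 27.1% ± 6.73, 41.7% ± 7.72 and 48.2% ± 9.90 in the same order, and *Tgfb3* the remainder. *Tgfb2* stood above *Tgfb1* in none of the sgInert libraries (0 of 7), in 4 of 7 after sgCebpa/b/d and in 4 of 5 after sgLkb1. The sum over the 3 ligands was 12.01 to 21.47 TPM in sgInert, 18.14 to 31.57 TPM in sgCebpa/b/d, and 18.88 to 28.3 TPM in the sgLkb1 libraries. In sgCebpa/b/d replicate 4, at 20.68 TPM of *Tgfb1*, this ligand made up 65.5%, and in the other libraries of that group 42.35% to 48.63%. That replicate also gave the highest sum of its group. These shares are a description and were not tested.

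**Figure D3:**
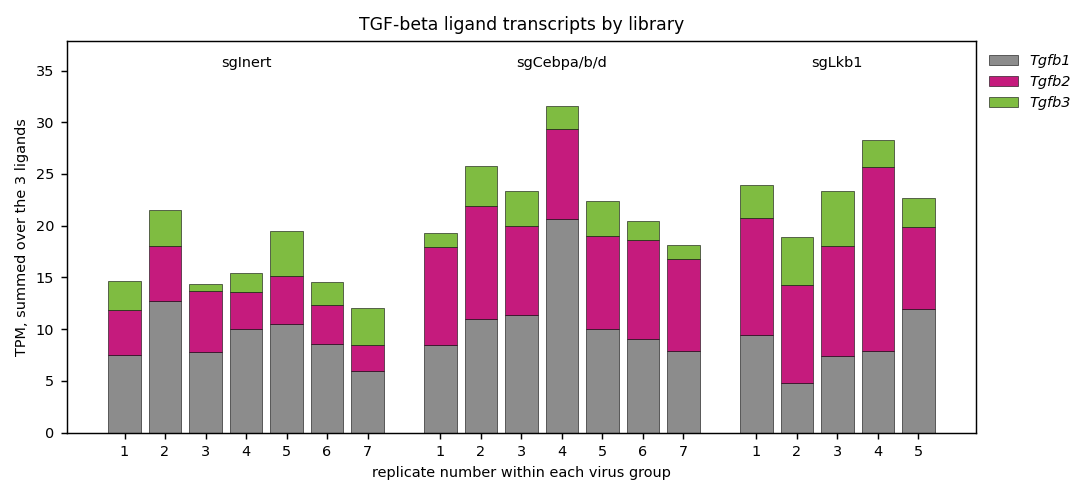
TPM of *Tgfb1*, *Tgfb2* and *Tgfb3* stacked in each of the 19 libraries, by virus group and replicate number. The *Tgfb2* segment is 2.52 to 5.93 TPM in sgInert libraries and 7.95 to 17.72 TPM in libraries of the targeted groups.

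*Ltbp1*, which binds latent TGF-beta and anchors it in the matrix, was the least abundant of the 9 genes on average in each group. It had 5 to 25 reads in the sgInert libraries, 10 to 81 in sgCebpa/b/d and between 35 and 98 in the sgLkb1 libraries. Its level was 0.33, 0.62 and 1.68 TPM (lowest, median and highest) in sgInert and 0.44, 1.63 and 3.36 TPM in sgCebpa/b/d, and the sgLkb1 libraries held 2.71, 6.1, 3.14, 0.99 and 1.95 TPM. All groups overlapped.

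The log2 fold change of *Ltbp1* relative to sgInert was 1.83 ± 0.51 in sgLkb1 (adjusted p = 0.0335) and 1.18 ± 0.48 in sgCebpa/b/d (adjusted p = 0.131). The difference between the targeted groups was -0.65 ± 0.49 (adjusted p = 0.532). The call in sgLkb1 was lost with effective lengths as offsets (adjusted p = 0.0591), without the libraries that carry no number (0.0566), with libraries of the same number summed (0.146) and on leaving out sgInert replicate 2, 3, 5, 6 or 7 or sgLkb1 replicate 1, 2 or 3 (up to 0.116, without sgLkb1 replicate 2). Without sgCebpa/b/d replicate 2, *Ltbp1* passed the test in that group (log2 fold change 1.38, adjusted p = 0.0482). Over the MT libraries its value in sgLkb1 was 2.49 ± 0.66 (adjusted p = 0.034).

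The receptors were far more abundant than the ligands. *Tgfbr2*, the type II receptor that binds the ligand, was the receptor that passed the test over all libraries. It was narrow in sgInert, at 25.43, 26.08 and 29.77 TPM (lowest, median and highest), and reached 41.02 to 63.81 TPM in the sgLkb1 libraries, which held 63.81, 41.02, 41.3, 49.62 and 44.41 TPM. In sgCebpa/b/d it was 19.66, 29.89 and 37.58 TPM. Every sgLkb1 library stood above every library of the other groups, in TPM and in log2 CPM. In log2 CPM the same was seen in 2.15% (against sgInert) and 2.87% (against sgCebpa/b/d) of all genes.

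The log2 fold change of *Tgfbr2* in sgLkb1 relative to sgInert was 0.60 ± 0.12 (adjusted p = 0.00377), and sgCebpa/b/d stood at -0.51 ± 0.12 relative to sgLkb1 (adjusted p = 0.0119). Relative to sgInert, *Tgfbr2* in sgCebpa/b/d was at 0.09 ± 0.11 (adjusted p = 0.698). The title series parted this group: its 4 MT libraries held 29.89 to 37.58 TPM and its 3 libraries without a number 19.66 to 24.31 TPM. With the MT libraries alone the difference between the targeted groups was -0.21 ± 0.09 (adjusted p = 0.248), while sgLkb1 remained higher relative to sgInert (0.49 ± 0.10, adjusted p = 0.00879).

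*Tgfbr1*, the type I receptor kinase that phosphorylates the SMADs, was measured at 28.57, 42.12 and 67.74 TPM (lowest, median and highest) in sgInert and at 25.46, 44.44 and 54.93 TPM in sgCebpa/b/d. The sgLkb1 libraries held 66.03, 51.09, 58.04, 65.99 and 53.27 TPM. Over all libraries neither group differed from sgInert beyond the spread (log2 fold change -0.17 ± 0.17 and 0.13 ± 0.18, adjusted p = 0.609 and 0.785).

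The value of *Tgfbr1* also depended on the title series. The ZR libraries of sgInert held 42.12 to 67.74 TPM and its MT libraries 28.57 to 37.12 TPM, which did not overlap. In sgCebpa/b/d the MT libraries held 44.44 to 54.93 TPM and those without a number 25.46 to 37.15 TPM. Restricted to the MT libraries, *Tgfbr1* was higher relative to sgInert by 0.50 ± 0.11 in sgCebpa/b/d (adjusted p = 0.0121), against a value below 0 over all libraries, and by 0.60 ± 0.12 in sgLkb1 (adjusted p = 0.00652). Some MT libraries of each group share a number in their titles, so that these values rest on few sources.

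The 2 inhibitors that the route switches on against itself did not pass a test. *Smad7*, which blocks the type I receptor, was at 7.86, 10.95 and 15.99 TPM (lowest, median and highest) in sgInert and at 10.67, 14.23 and 20.18 TPM in sgCebpa/b/d, and the sgLkb1 libraries held 16.49, 16.06, 17.15, 17.12 and 12.23 TPM. Its log2 fold changes relative to sgInert were 0.25 ± 0.15 (95% interval -0.07 to 0.58, adjusted p = 0.35) and 0.21 ± 0.17 (-0.14 to 0.56, adjusted p = 0.569). Both intervals leave out a fold change of 2 or more, and neither shows that the level was the same.

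Between the targeted groups *Tgfb1*, *Tgfb3*, *Tgfbr1*, *Smad7* and *Skil* did not pass either, with log2 differences (sgCebpa/b/d minus sgLkb1) from -0.37 ± 0.36 for *Tgfb3* to 0.41 ± 0.22 for *Tgfb1* (adjusted p = 0.644 and 0.343).

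*Skil*, which encodes the SMAD corepressor SnoN, was the most abundant of the 9 genes in sgInert and in sgCebpa/b/d. It was at 45.35, 61.08 and 125.9 TPM (lowest, median and highest) in sgInert and at 64.98, 77.09 and 97.03 TPM in sgCebpa/b/d, and the sgLkb1 libraries held 88.35, 104.97, 79.53, 93.37 and 91.5 TPM. The log2 fold changes relative to sgInert were 0.15 ± 0.17 (95% interval -0.20 to 0.50, adjusted p = 0.671) and 0.16 ± 0.18 (-0.22 to 0.54, adjusted p = 0.716).

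*Tgfbi*, a secreted matrix protein named for its induction by TGF-beta, had the largest change among the 9 genes. It was at 13.97, 46.1 and 57.94 TPM (lowest, median and highest) in sgInert and at 24.44, 59.46 and 71.53 TPM in sgCebpa/b/d. The sgLkb1 libraries held 223.9, 155.75, 194.26, 153.39 and 171.84 TPM, all above every library of the other groups. The log2 fold change in sgLkb1 was 2.02 ± 0.29 relative to sgInert (adjusted p = 1.64e-04), and sgCebpa/b/d stood at -1.69 ± 0.29 relative to sgLkb1 (adjusted p = 6.71e-04).

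Relative to sgInert, *Tgfbi* in sgCebpa/b/d was at 0.33 ± 0.27 over all libraries (adjusted p = 0.514), and this value depended on the title series. The sgInert libraries held 13.97 to 39.14 TPM in the MT series and 46.1 to 57.94 TPM in the ZR series. The sgCebpa/b/d libraries held 59.46 to 71.53 TPM in the MT series and 24.44 to 33.63 TPM without a number.

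With the MT libraries alone *Tgfbi* was higher in sgCebpa/b/d by 1.38 ± 0.29 (adjusted p = 0.00822) and in sgLkb1 by 2.67 ± 0.31 (adjusted p = 1.20e-04), and sgCebpa/b/d stayed below sgLkb1 at -1.28 ± 0.27 (adjusted p = 0.00901). Without the libraries that carry no number, but with the ZR series, the difference between the targeted groups was -1.29 ± 0.36 and missed the threshold (adjusted p = 0.0654). The MT libraries of sgCebpa/b/d came from 2 numbered titles, as did those of the other groups, so that these values rest on few sources.

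**Figure D4:**
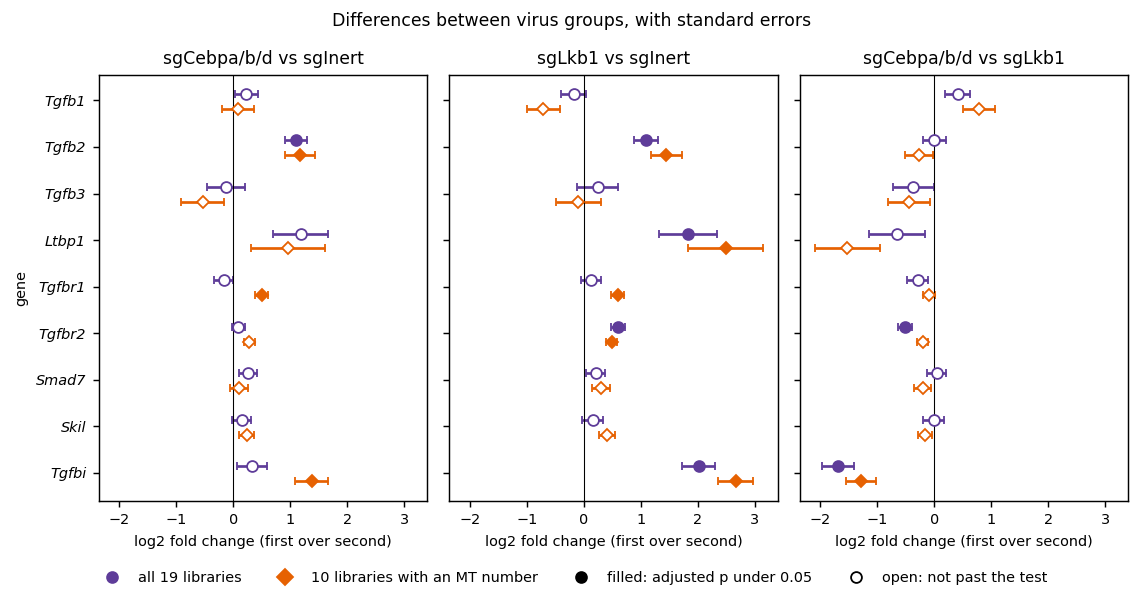
Log2 fold change (x axis) with its standard error for each of the 9 genes (y axis) in the 3 comparisons, over all 19 libraries (circles) and over the 10 MT libraries (diamonds), filled where the adjusted p was under 0.05. *Tgfb2* is filled and right of 0 in both comparisons with sgInert under both sets of libraries, and *Tgfbi* in sgCebpa/b/d moves from 0.33 to 1.38 when the MT libraries are used alone.

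The order of the levels also differed between groups. In sgInert the mean levels ran from *Skil* (70.2 ± 28.2 TPM, SD) over *Tgfbr1*, *Tgfbi* (39.4 ± 18.1) and *Tgfbr2* (27.2 ± 1.92), then *Smad7*, *Tgfb1*, *Tgfb2* (4.30 ± 1.13) and *Tgfb3*, to *Ltbp1* (0.813 ± 0.542). The ranges of neighbours overlapped at each step but the one from *Tgfbr2* to *Smad7*. In sgLkb1 *Tgfbi* stood first at 180 ± 29.6 TPM, above *Skil* at 91.5 ± 9.19 TPM with no overlap, and *Tgfb2* (11.4 ± 3.75 TPM) stood above *Tgfb1* (8.29 ± 2.61 TPM), with overlap. In sgCebpa/b/d *Tgfb2* (9.32 ± 0.802 TPM) overlapped *Tgfb1* above it (11.2 ± 4.37 TPM) and not *Tgfb3* below it (2.50 ± 1.05 TPM).

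Effects in males and females could be compared for sgCebpa/b/d against sgInert, with title series running alongside sex. None of the 9 genes had an effect that differed past the test between the sexes, where 0.168% of 12500 genes did. The smallest p was that of *Tgfbi*, whose difference was -1.78 ± 0.44 (male effect minus female effect, log2 scale, adjusted p = 0.121), with group differences of 1.45 in females and -0.55 in males. *Ltbp1* had a difference of 1.94 ± 0.89 (adjusted p = 0.439), with 0.20 in females and 1.89 in males.

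The genes whose log2 CPM ran most closely with each changed gene over the 19 libraries were chosen by Pearson correlation, as a description. For *Tgfb2* these were *Prokr1* (r = 0.931), *Pmp22* (0.925) and *Spats2l* (0.881), for *Tgfbi* *Arl5a* (0.904), *Med13l* (0.898) and *Sdc1* (0.865), for *Tgfbr2* *Zfp664* (0.85), *Far1* (0.841) and *Nsf* (0.817), and for *Ltbp1* *Pcdh19* (0.804) and *Mmp14* (0.804). The libraries share groups and title series, which alone give genes a common pattern.

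The wider route was read from 5 lists of 58 genes, of which 57 could be tested. These lists were also chosen with earlier results of these data known, so their shares are a description as well. Relative to sgInert, 8 were higher and 5 lower in sgCebpa/b/d (22.8%, beside 10.1% of all genes), and 10 were higher and 1 lower in sgLkb1 (19.3%, beside 5.78%). Between the targeted groups 2 were higher and 6 lower in sgCebpa/b/d (14%, beside 5.96%). The median log2 fold change of the lists was 0.33, 0.46 and -0.17. With the MT libraries alone, 25.9% of the genes tested passed in sgCebpa/b/d (beside 8.55% of all genes) and 33.3% in sgLkb1 (beside 6.97%), and without the libraries that carry no number 10.7% (beside 6.26%) and 12.5% (beside 3.73%). The share that differed between the targeted groups was near the background with libraries of the same number summed (2 genes, 3.51%, beside 3.28%) and with a replicate block (3 genes, 5.26%, beside 4.73%).

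Of 14 genes of storage and activation, 2 rose and 1 fell in sgCebpa/b/d (21.4%, beside 10.1% of all genes) and 3 rose in sgLkb1 (21.4%, beside 5.78%). Between the targeted groups 1 was higher and 1 lower in sgCebpa/b/d (14.3%, beside 5.96%). *Itgb3*, the beta-3 chain that pairs with alpha-v, was at 0.12 to 0.71 TPM in sgInert, 1.88 to 4.11 TPM in sgCebpa/b/d, and 2.84 to 6.21 TPM in the sgLkb1 libraries, with no overlap of either group with sgInert. It rose by 2.71 ± 0.30 (adjusted p = 2.16e-06) and 3.08 ± 0.31 (adjusted p = 2.41e-06) on the log2 scale and passed in all alternatives for both, on 2 to 16 reads in the sgInert libraries. *Itgb6*, the epithelial chain whose alpha-v pair frees TGF-beta, rose in sgCebpa/b/d by 0.96 ± 0.17 (adjusted p = 7.78e-04), with 0.32 ± 0.19 in sgLkb1 (adjusted p = 0.401), and sgCebpa/b/d was higher than sgLkb1 by 0.65 ± 0.19 (adjusted p = 0.0468, past the threshold on leaving out 5 of the 19 libraries in turn). This difference between the targeted groups passed in 5 of 12 other settings (adjusted p up to 0.525).

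*Itgav*, the alpha-v chain itself, rose in sgLkb1 by 0.80 ± 0.15 (adjusted p = 0.0021), where every library (123.61 to 189.58 TPM) stood above every sgInert library (54.31 to 103.47 TPM). *Fbn1*, the fibrillin that holds latent complexes, rose in sgLkb1 by 1.90 ± 0.42 (adjusted p = 0.00732). *Furin*, the protease that cleaves the propeptide, fell in sgCebpa/b/d, at -0.55 ± 0.14 (adjusted p = 0.00992). *Fbn1* is also a product of fibroblasts, whose markers moved the same way.

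None of the 3 co-receptors and endothelial receptors passed in any comparison. Of 5 signal-carrying SMADs and adaptors, *Zfyve9*, the anchor that brings SMADs to the receptor, was lower in sgCebpa/b/d relative to sgInert (-0.35 ± 0.10, adjusted p = 0.0256) and to sgLkb1 (-0.46 ± 0.11, adjusted p = 0.0114), and *Smad3* lay below its sgLkb1 level in sgCebpa/b/d (-0.51 ± 0.13, adjusted p = 0.0191). These were 1 of 5 relative to sgInert (20%, beside 10.1% of all genes) and 2 of 5 relative to sgLkb1 (40%, beside 5.96%). The call of *Zfyve9* held in 5 of 12 other settings relative to sgInert and in 8 of 12 relative to sgLkb1, and that of *Smad3* in 9 of 12 (adjusted p up to 0.639) and on leaving out 16 of the 19 libraries in turn.

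Of 12 further inhibitors, 1 was lower in sgCebpa/b/d (8.33%, below the 10.1% of all genes) and 2 were higher in sgLkb1 (16.7%, beside 5.78%) relative to sgInert. *Bambi*, a receptor decoy without a kinase, fell in sgCebpa/b/d (-0.59 ± 0.14, adjusted p = 0.00796), where every library lay below every sgInert library in log2 CPM. *Pmepa1*, which is induced by TGF-beta and holds back SMADs, rose in sgLkb1 by 0.86 ± 0.19 (adjusted p = 0.00871) and stood lower in sgCebpa/b/d against sgLkb1 (-0.76 ± 0.19, adjusted p = 0.0184). *Ldlrad4*, related to *Pmepa1*, rose in sgLkb1 by 0.91 ± 0.23 (adjusted p = 0.02), a call held in 9 of 12 other settings, as the difference of *Pmepa1* between the targeted groups was in 8 of 12.

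Of 23 genes listed as commonly induced targets that could be tested, 6 rose and 2 fell in sgCebpa/b/d (34.8%, beside 10.1% of all genes) and 5 rose and 1 fell in sgLkb1 (26.1%, beside 5.78%). The list holds *Id1*, *Id2* and *Id3*, which the route does not induce in every cell type. These counts therefore do not give the direction of the route. *Fn1*, the matrix protein fibronectin, was at 5.04 to 50.09 TPM in sgInert, 48.26 to 82.36 TPM in sgCebpa/b/d, and 126.57 to 205.75 TPM in the sgLkb1 libraries. It rose in sgLkb1 by 2.40 ± 0.39 (adjusted p = 5.60e-04), and its 1.11 ± 0.36 in sgCebpa/b/d missed the threshold (adjusted p = 0.0504). Among the MT libraries this was 2.46 ± 0.22 (adjusted p = 1.35e-05).

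*Cdkn1a*, the cell-cycle inhibitor p21, went in opposite directions in the targeted groups. Its level was 79.73 to 160.45 TPM in sgInert, 67.74 to 98.95 TPM in sgCebpa/b/d, and 199.88 to 292.86 TPM in the sgLkb1 libraries. It fell in sgCebpa/b/d (-0.61 ± 0.13, adjusted p = 0.0034) and rose in sgLkb1 by 0.69 ± 0.14 (adjusted p = 0.00395), and the test between these groups gave -1.30 ± 0.14 (adjusted p = 4.61e-06), each past the threshold under all 12 other settings.

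The inhibitors of differentiation also parted. *Id2* fell in both groups (-1.12 ± 0.24, adjusted p = 0.00313, and -1.48 ± 0.27, adjusted p = 0.00165). *Id3* rose in sgCebpa/b/d by 1.52 ± 0.30 (adjusted p = 0.00148), with 0.33 ± 0.32 in sgLkb1, and sgCebpa/b/d exceeded sgLkb1 by 1.19 ± 0.32 (adjusted p = 0.0305), a difference past the test in 7 of 12 other settings (adjusted p up to 0.308) and on leaving out 12 of the 19 libraries in turn. The value of *Id3* in sgCebpa/b/d over the MT libraries was 0.57 ± 0.24 (adjusted p = 0.18).

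*Ctgf*, the matricellular growth factor also called *Ccn2*, rose in sgCebpa/b/d by 1.24 ± 0.30 (adjusted p = 0.00962), and the AP-1 subunit gene *Junb* by 1.13 ± 0.30 (adjusted p = 0.0182). Without the libraries that carry no number *Ctgf* was at 0.54 ± 0.29 (adjusted p = 0.345), and with the MT libraries alone *Junb* was at 0.14 ± 0.14 (adjusted p = 0.663). *Zeb2*, a repressor of epithelial genes, rose in both groups, by 1.56 ± 0.48 (adjusted p = 0.0395) and 1.77 ± 0.51 (adjusted p = 0.0407), and each call held on leaving out 10 of the 19 libraries in turn. Under other settings the *Zeb2* calls held in 8 of 12 (adjusted p up to 0.681) and in 7 of 12 (up to 0.282). *Col4a1*, a basement membrane collagen, rose in both groups by 0.33 ± 0.08 and 0.34 ± 0.09 (adjusted p = 0.00834 and 0.0196). *Pdgfb*, a growth factor for mesenchymal cells, rose in sgCebpa/b/d by 0.93 ± 0.28 (adjusted p = 0.0331), and *Tsc22d1*, a TGF-beta-responsive leucine zipper gene, rose in sgLkb1 by 0.40 ± 0.12 (adjusted p = 0.0485), calls that held on leaving out 12 and 5 of the 19 libraries in turn. They held in 7 of 12 (*Pdgfb*) and 4 of 12 (*Tsc22d1*) other settings.

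**Figure D5:**
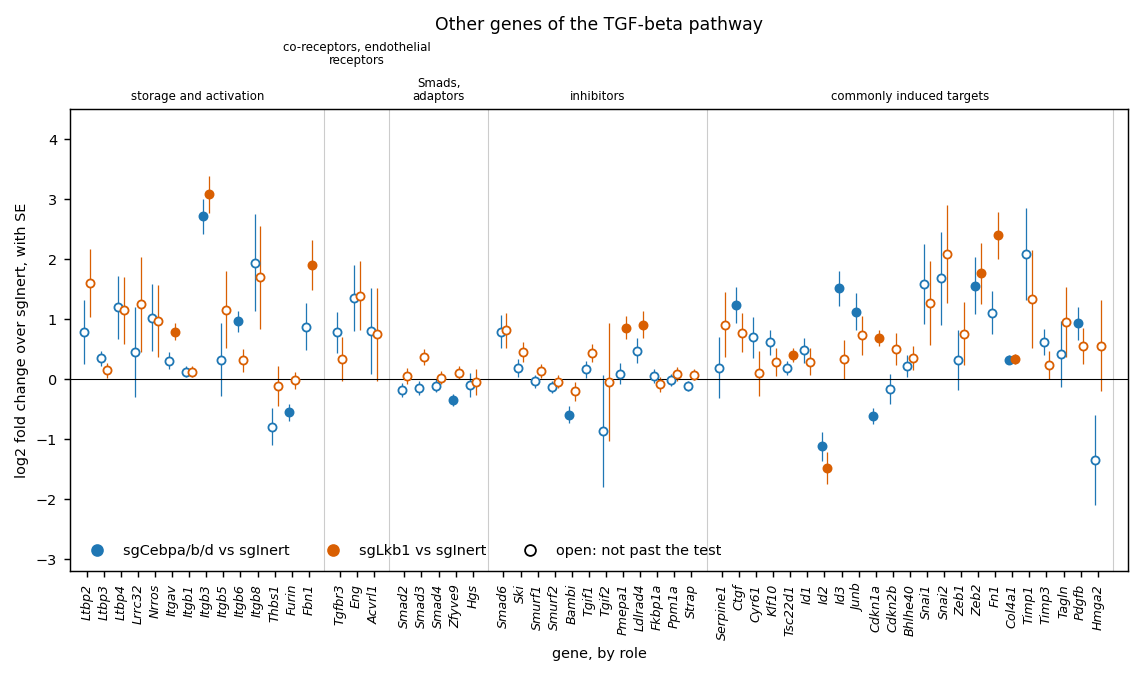
Log2 fold change over sgInert with its standard error for the 57 other TGF-beta pathway genes tested, grouped by role, in sgCebpa/b/d (blue) and sgLkb1 (orange), filled where the adjusted p was under 0.05. *Itgb3* (2.71 and 3.08) stands highest in both groups, and *Cdkn1a* is below 0 in sgCebpa/b/d and above 0 in sgLkb1.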

How the data were processed

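Bulk RNA-seq of neoplastic cells sorted from lung tumors was analysed in 19 libraries of 3 virus groups. The authors aligned paired reads to mm10 with STAR 2.6.1d and ran RSEM 1.2.30, without a stated strand setting, and deposited for each library the expected count, TPM and effective length (bases a fragment can start from) of each gene. Their annotation release is not given in the sources used here. The deposited tables of fold changes and p-values from the authors' own comparisons, and their normalized counts, were not used. TPM is a share of a library, so that it moves with the make-up of the rest, and the amplification from a few nanograms of RNA can add noise at low counts.

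The expected counts, rounded, were tested in one model over all 19 libraries with edgeR 4.0.16 (quasi-likelihood test, TMM scaling, filterByExpr with a minimum count of 10 and total of 15), with Benjamini-Hochberg adjustment over 13986 genes. Levels are TPM. Log2 CPM used a prior count of 2. Each SE is the absolute log2 fold change over the square root of the F statistic of the quasi-likelihood test. The 95% intervals were built from these SE values. The alternatives used DESeq2 1.42.0, limma 3.58.1 on log2(TPM + 1), other filters, effective lengths, sex, subsets of the libraries, a replicate block and leaving out each library. On simulated counts of sgCebpa/b/d against sgInert with 13872 genes, 52% of 100 genes changed by 1 and 85.6% of 97 changed by 2 on the log2 scale were called. Libraries of a group differed by more than sampling noise in every pair (chi-square per gene 7.34 to 78.8).

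The 9 genes and the lists were chosen with earlier results of these data known. Named from the lists are the genes past the test with an absolute log2 fold change above 1 in at least 1 comparison and up to 3 others per list by smallest p. Promoter windows and start sites are from RefSeq (GRCm38.p6), where 6 of the 9 genes had a window, and overlaps between genes from GENCODE vM21 (GRCm38). The software was R 4.3.3, Python 3.11.15 and matplotlib 3.10.9. One allele that all mice shared and one gene of the correlation lists are not reported here.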

Additional observations from a re-analysis of the deposited data

Results flagged for a closer look

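In 3 of the 27 groups of values checked (9 genes in 3 virus groups), the library at one end stood apart from the rest by more than Dixon's 95% limit, and chance flags about 1 group in 20. *Tgfb2* was at 2.63 log2 CPM in sgInert replicate 7, against 3.76 in the next lowest library of that group, a gap of 0.575 of the group's range. Without it, the log2 fold changes of *Tgfb2* stayed past the test. *Tgfbr2* was at 8.25 log2 CPM in sgLkb1 replicate 1, against 7.91 in the next highest library, a gap of 0.807 of the range. *Smad7* was at 5.16 log2 CPM in sgLkb1 replicate 5, against 5.49 in the next lowest library, a gap of 0.717 of the range.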

How the results depend on the processing

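Of the 9 genes, 1 passed the test in sgCebpa/b/d against sgInert, and 3 did with the MT libraries alone (1 to 2 on leaving out 1 library, 2 without sgCebpa/b/d replicate 2). In sgLkb1 4 passed, with 3 to 5 under the other settings and 3 to 4 on leaving out 1 library. Between the targeted groups 2 passed, against 1 at an absolute log2 fold change above 1, 1 with the MT libraries alone and 0 without the libraries that carry no number (2 on leaving out any 1 library). *Tgfbr1* in sgCebpa/b/d went from -0.17 to 0.50 with the MT libraries alone. Of the genes of the lists, 13 passed in sgCebpa/b/d, 11 in sgLkb1 and 8 between the targeted groups. With the fold change limit these were 6, 5 and 3, and without the libraries that carry no number 6, 7 and 3. In sgLkb1 the count was 17 with sex as a covariate and 18 with the MT libraries alone. Between the targeted groups it was 5 with effective lengths and 2 with libraries of the same number summed. Leaving out 1 library gave 10 to 17, 7 to 12 (7 without sgLkb1 replicate 2) and 3 to 9 (3 to 5 without sgCebpa/b/d replicate 4, 5 or 6 or sgLkb1 replicate 1, 2, 3 or 4). No gene of the 9 had an effect of sgCebpa/b/d against sgInert that differed between the sexes past the test (0 to 1 on leaving out 1 library, 1 without sgInert replicate 4). On log2(TPM + 1) in limma the median of all genes was 0.18 in sgLkb1 against sgInert and -0.155 between the targeted groups, with the same 4 and 2 of the 9 genes called. The cause of these shifts was not tested. Counts of 5 to 25 reads limited *Ltbp1* in sgInert.

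The labels number the libraries of each group, but same-numbered libraries did not deviate together (r -0.146 to 0.0965 between sgCebpa/b/d and sgInert, -0.0972 to 0.0435 between sgLkb1 and sgInert, -0.147 to 0.232 between the targeted groups), so the numbers were not taken as pairs. With a replicate block 1, 4 and 2 of the 9 genes passed, and 15, 13 and 3 of the genes of the lists.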

Other observations

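The neighbouring branches of the family, activins, bone morphogenetic proteins (BMPs) and their antagonists, changed in few genes. Of 25 tested, 2 rose and 2 fell in sgCebpa/b/d relative to sgInert (16%, beside 10.1% of all genes), and 2 rose and 2 fell in sgLkb1 (16%, beside 5.78%). *Fstl1*, a secreted BMP antagonist that fibroblasts also make, was at 1.01 to 7.5 TPM in sgInert, 4.89 to 12.45 TPM in sgCebpa/b/d and 14.84 to 29.8 TPM in sgLkb1. Its log2 fold change was 2.68 ± 0.43 in sgLkb1 (adjusted p = 5.60e-04) and 1.34 ± 0.41 in sgCebpa/b/d (adjusted p = 0.038), where the call held in 9 of 12 other settings (adjusted p up to 0.215) and on leaving out 11 of the 19 libraries in turn. The antagonist *Nbl1* rose in sgLkb1 by 1.63 ± 0.47 (adjusted p = 0.0418), on 2 to 19 reads in the sgInert libraries, a call that held on leaving out 8 of the 19 libraries in turn.

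*Bmp2*, a ligand, fell in both groups, at -1.07 ± 0.25 (adjusted p = 0.00615) and -0.98 ± 0.27 (adjusted p = 0.0336). *Bmp5* fell in sgLkb1, at -0.72 ± 0.15 (adjusted p = 0.00451). *Bmp4*, the most abundant of these ligands, rose in sgCebpa/b/d by 0.39 ± 0.12 (adjusted p = 0.047) and was higher there than in sgLkb1 by 0.81 ± 0.14 (adjusted p = 6.94e-04), with no overlap in log2 CPM. *Gdf15*, a stress-induced family member, fell in sgCebpa/b/d (-1.16 ± 0.33, adjusted p = 0.0275) and lay below sgLkb1 there (-1.62 ± 0.35, adjusted p = 0.00667). *Smad9*, a signal carrier of the BMP branch, was higher in sgCebpa/b/d than in sgLkb1 by 2.31 ± 0.52 (adjusted p = 0.00927), at 0.96 to 3.89 against 0.12 to 0.8 TPM. The calls relative to sgInert held on leaving out 4 of the 19 libraries in turn for *Bmp4* and 13 for *Gdf15* in sgCebpa/b/d, and 12 for *Bmp2* in sgLkb1, and that of *Bmp4* in 6 of 12 other settings. With the MT libraries alone *Bmp2* missed the threshold in both groups (adjusted p = 0.0854 and 0.112), as did *Gdf15* and *Bmp4* in sgCebpa/b/d against sgInert (0.0907 and 0.0569), *Bmp5* (0.151) and *Nbl1* (0.0649) in sgLkb1.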
